A study of Mus musculus with 11 samples.

Results

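The genes described here code for the enzymes that build glycogen, the branched store of glucose in muscle, and that break it down. Members were the rows of the count table whose Ensembl identifier carries the symbol Pygm, Pygb, Pygl, Gys1, Gyg, Gbe1, Phka1, Phkg1 or Pgm1. Of these 9 genes, 8 had a row among the 15113 of the table, and 7 passed the low-count filter and were tested. Phkg1 did not pass the filter and is described by its counts, and Pygl, the liver phosphorylase, is not analysed here.

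The cells were C2C12, a line of mouse myoblasts that fuse into myotubes, used at passages 2 to 5 and labelled early stage myotubes. All libraries came from cells with a short hairpin RNA: 6 carried a hairpin named random (shRandom, the control) and 5 a hairpin against Drp1 (shDRP1), the GTPase that divides mitochondria. The labels name a single hairpin against Drp1 and do not say whether the libraries came from separate cultures or whether a hairpin group was 1 clone, so the p-values below weigh differences only against the variation among these libraries, part or all of which may be technical. The labels name no batch. The libraries counted tags near the 3' end of polyadenylated transcripts. Levels are given as CPM, counts scaled to a common library size, after scaling by trimmed mean of M values (TMM).

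Glycogen is started on the self-glucosylating protein glycogenin (Gyg), extended by glycogen synthase (Gys1 in muscle) and branched by the branching enzyme (Gbe1). It is broken down by glycogen phosphorylase, of which mammals have a muscle (Pygm), a brain (Pygb) and a liver (Pygl) form, and phosphorylase is switched on by phosphorylase kinase, which contains a regulatory alpha subunit (Phka1 in muscle) and a catalytic gamma subunit (Phkg1 in muscle). Phosphoglucomutase (Pgm1) joins both directions to glucose 6-phosphate. Muscle burns its glycogen locally during contraction, and loss of Pygm causes McArdle disease in humans.

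Regulatory sequence is shown for the muscle and the brain phosphorylase, because these isoforms moved in opposite directions, and for the muscle synthase. Each sequence is the RefSeq promoter window of GRCm38.p6, which runs from 250 bases before the start of transcription through the first 50 transcribed bases, 5' to 3' on the gene's strand. All 9 members matched an entry. Capitals mark CAGCTG, a form of the E-box (CANNTG) that the muscle factors MyoD and myogenin bind. The windows are chr19:6384158-6384457 for Pygm, chr2:150786546-150786845 for Pygb and chr7:45434589-45434888 for Gys1, all on the plus strand.
Pygm: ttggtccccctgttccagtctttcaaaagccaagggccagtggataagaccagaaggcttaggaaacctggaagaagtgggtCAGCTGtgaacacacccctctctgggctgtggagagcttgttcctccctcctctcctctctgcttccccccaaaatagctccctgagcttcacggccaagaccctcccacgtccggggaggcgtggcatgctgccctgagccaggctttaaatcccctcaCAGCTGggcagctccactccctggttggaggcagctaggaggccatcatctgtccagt
Pygb: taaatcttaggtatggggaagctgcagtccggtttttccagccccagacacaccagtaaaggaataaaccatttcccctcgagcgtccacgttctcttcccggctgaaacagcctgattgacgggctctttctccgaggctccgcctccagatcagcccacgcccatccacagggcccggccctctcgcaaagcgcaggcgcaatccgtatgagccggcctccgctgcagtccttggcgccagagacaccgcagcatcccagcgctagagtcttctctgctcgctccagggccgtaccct
Gys1: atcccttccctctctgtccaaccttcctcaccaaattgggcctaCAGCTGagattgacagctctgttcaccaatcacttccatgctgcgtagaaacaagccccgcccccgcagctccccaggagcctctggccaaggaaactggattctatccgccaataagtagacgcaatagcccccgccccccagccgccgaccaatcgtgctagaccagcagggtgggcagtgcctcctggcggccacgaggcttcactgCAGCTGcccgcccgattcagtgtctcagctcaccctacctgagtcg

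Pygm has CAGCTG at 2 places, whose first bases lie at -168 and -8 from the start, and Gys1 has it at 2 places, at -206 and 4. Phka1 has it once, at -38, and the windows of the other 6 members, Pygb among them, hold no match. CAGCTG reads the same on both strands and is contained in the wider motif CANNTG, and both strands were searched. Of 32851 promoter windows of 300 bases, 16.3% hold CAGCTG and 72.3% hold CANNTG. The wider motif is absent from the windows of Pygb, Pygl and Pgm1. The binding motif of the muscle factor MEF2 was found in 3.19% of all windows and in none of the members' windows. A match describes letters in these windows and not binding.

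Total counts ran from 15702942 to 23082617 in the control libraries and from 12277622 to 20706327 in the shDRP1 libraries. The targeted gene, Dnm1l, which codes for Drp1, ran from 67.1 to 86.2 CPM in the control libraries and was at 19.1, 14.5, 18.1, 21.0 and 20.6 CPM in shDRP1 replicates 1 to 5, which left 23.7% of its control mean. The difference between the groups was broad: of 13025 genes tested with edgeR's quasi-likelihood test, 67.1% passed an adjusted p of 0.05, 33.9% as higher and 33.3% as lower in shDRP1 libraries. The myotube label was checked against 14 defining markers: their summed level was 11520 to 12830 CPM in the control libraries and 152.3 to 221.9 CPM in the shDRP1 libraries. All 14 fell and none was at 0 in either group. Of 3 myoblast markers Pax7 (17.8 to 0.0614 CPM) and Myod1 (120.5 to 2.28 CPM) fell and Myf5 (6.05 to 13.6 CPM) rose, and their summed level was 120.7 to 175.0 CPM in control and 10.5 to 25.3 CPM in shDRP1 libraries. Of 4 tested fibroblast markers 3 rose (summed level 1352 to 1762 CPM in control and 3429 to 5763 CPM in shDRP1 libraries), and of 4 tested smooth muscle markers 3 rose (2680 to 3220 CPM and 8196 to 9968 CPM). Thy1 and Myh11 of these lists, and all listed endothelial and liver markers, were not analysed here. The part of these marker changes in the results below was not tested. In bulk RNA, fewer cells of a type and less RNA per cell cannot be told apart.

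The muscle form of phosphorylase nearly disappeared from the shDRP1 libraries while the brain form rose, and the genes that start and extend glycogen fell by almost the same proportion as each other. Gbe1, Phka1 and Pgm1 were moderately higher. Among the 7 members tested, 3 fell (Pygm, Gys1 and Gyg) and 4 rose (Pygb, Phka1, Gbe1 and Pgm1), beside the 67.1% of all genes that passed. For each of the 7 the shDRP1 libraries lay wholly on one side of the control libraries, which held for 48.9% of all genes tested. Pygm and Pygb changed at least 2-fold, as 24.9% of all genes tested did with a call.

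**Figure D1:**
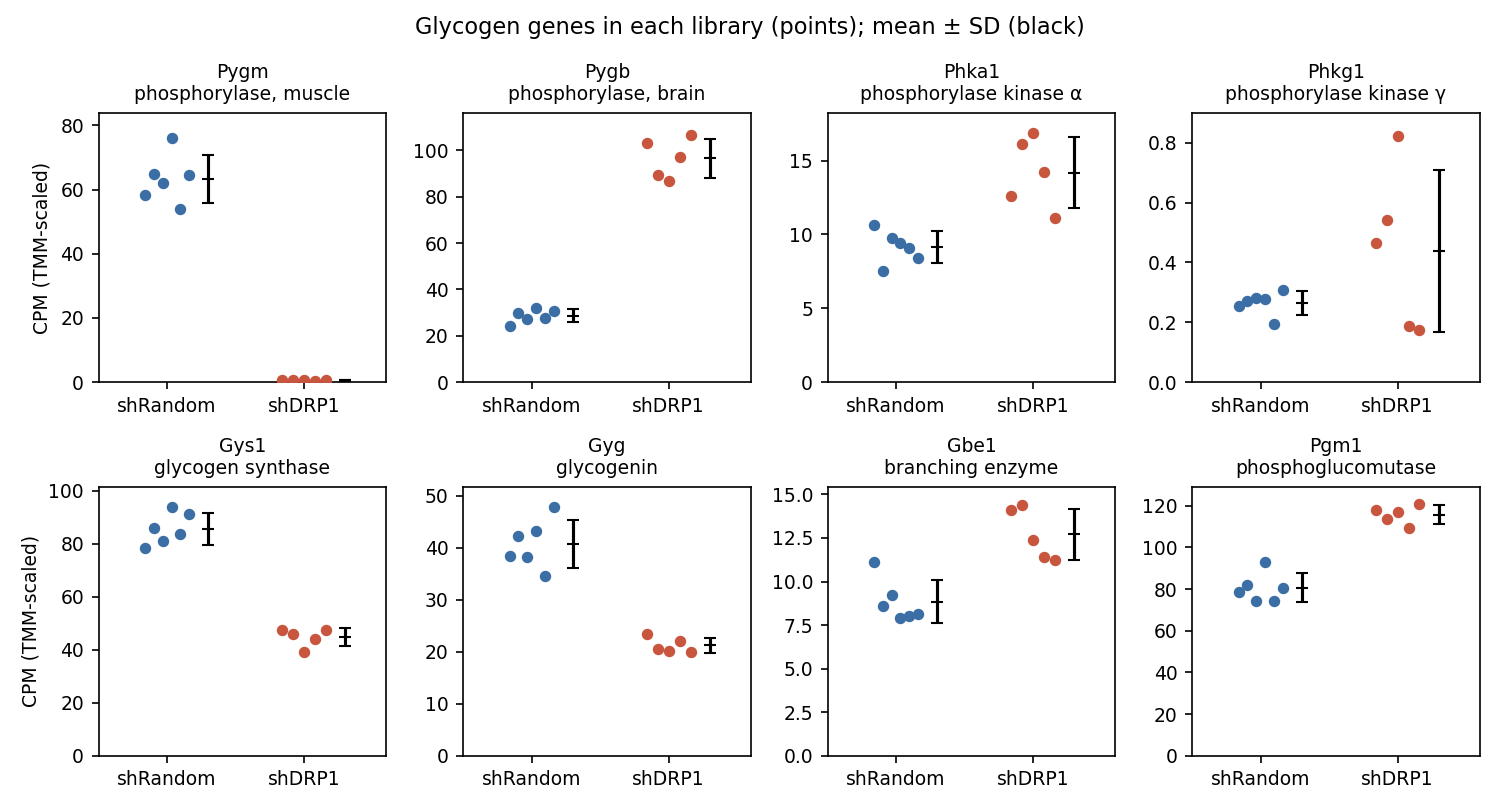
Level of each of the 8 measured glycogen genes (vertical axis, TMM-scaled CPM, starting at 0 and different in each panel) in the 6 shRandom and 5 shDRP1 libraries; points are libraries and black bars are mean ± SD. Pygm sits between 53.8 and 76.1 CPM in control and below 1 CPM in shDRP1 libraries, while all shDRP1 points of Pygb lie above all control points, and the groups overlap only for Phkg1.

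Pygm, the muscle phosphorylase (ENSMUSG00000032648, chromosome 19 from 6384399 to 6398459 on the plus strand of GRCm38), ran from 53.8 through a median of 63.5 to 76.1 CPM in the control libraries. In shDRP1 replicates 1 to 5 it was at 0.522, 0.773, 0.567, 0.377 and 0.698 CPM. Every shDRP1 library was far below every control library. The mean fell from 63.3 ± 7.56 (mean ± SD of 6 control libraries) to 0.587 ± 0.155 CPM (5 shDRP1 libraries), which left 0.927% of the control level, a log2 fold change of -6.78 (SE 0.15, adjusted p = 4.1e-14, edgeR quasi-likelihood test). The shDRP1 libraries held 8 to 12 counts of Pygm each and 50 together, against 6928 in the control libraries, so the size of the change is less certain than its direction. Pygm passed the low-count filter through the control libraries. Of the 13025 genes tested, 145 had a lower log2 fold change.

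Pygb, the brain phosphorylase (ENSMUSG00000033059, chromosome 2 from 150786735 to 150831758, plus strand), moved the other way. It ran from 24.1 through a median of 28.7 to 32.0 CPM in control and was at 103.2, 89.6, 86.6, 97.1 and 106.5 CPM in shDRP1 replicates 1 to 5. The lowest shDRP1 library was above the highest control library. The mean rose 3.38-fold, from 28.6 ± 2.82 (mean ± SD of 6 control libraries) to 96.6 ± 8.53 CPM (5 shDRP1 libraries), with a log2 fold change of 1.76 (SE 0.08, adjusted p = 9.7e-11, edgeR). Of the listed brain markers only Mbp was analysed here, at 0.258 to 1.24 CPM in control and 0.754 to 1.88 CPM in shDRP1 libraries. Neither phosphorylase gene overlaps another annotated gene in GENCODE M21.

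Setting the isoforms against each other within a library removes the scaling between libraries. Pygm took 68.9% ± 1.73 (SD, n = 6) of the counts of Pygm and Pygb together in control and 0.609% ± 0.177 (SD, n = 5) in shDRP1 libraries. The mean log2 ratio of Pygm to Pygb was 1.15 ± 0.12 (SD, n = 6) and -7.33 ± 0.43 (SD, n = 5), a difference of -8.47 (two-sided exact permutation test over 462 splits, p = 0.00216, the smallest these groups allow; 0.00325 after Benjamini-Hochberg adjustment over 3 isoform ratios). The summed level of both genes was 81.5 to 108.1 CPM, with a mean of 91.9 ± 9.88 (SD, n = 6), in control and 87.2 to 107.2 CPM, with a mean of 97.2 ± 8.52 (SD, n = 5), in shDRP1 libraries. The range of the sum in shDRP1 libraries lay within that of the control libraries. Pygl is not part of the sum. How well the tags capture each gene was not measured, so the sum of CPM need not follow their total transcript.

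**Figure D2:**
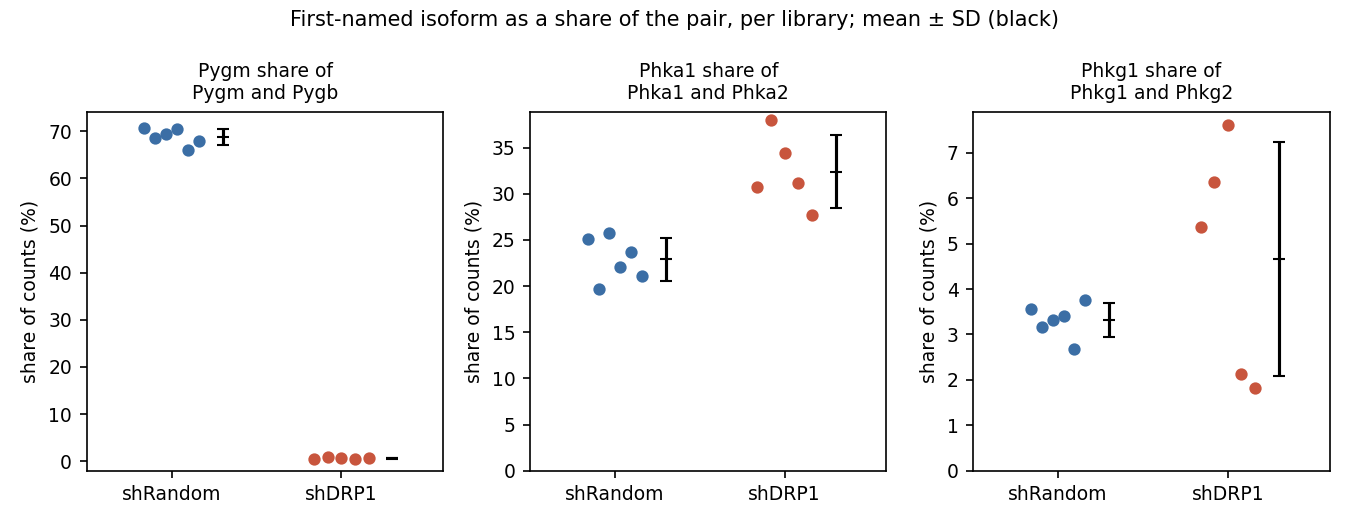
Share of counts (vertical axis, percent) taken by the first-named isoform of each pair in every library: Pygm of Pygm and Pygb, Phka1 of Phka1 and Phka2, and Phkg1 of Phkg1 and Phkg2; black bars are mean ± SD over 6 shRandom and 5 shDRP1 libraries. Pygm goes from 66.1% to 70.7% in control to under 1% in shDRP1 libraries, the Phka1 share is higher in every shDRP1 library, and the Phkg1 shares overlap.

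In phosphorylase kinase the muscle alpha subunit rose, the muscle form of the catalytic subunit was barely counted and the shared beta subunit fell. Phka1, the muscle alpha subunit (ENSMUSG00000034055, chromosome X from 102513975 to 102644246, minus strand), ran from 7.53 through a median of 9.24 to 10.6 CPM in control and was at 12.6, 16.2, 16.9, 14.2 and 11.1 CPM in shDRP1 replicates 1 to 5. The groups did not overlap, though replicate 5 was close to the highest control library. Its mean rose 1.55-fold, with a log2 fold change of 0.64, an SE of 0.12 and an adjusted p of 3.5e-04 in edgeR, from 9.14 ± 1.08 (mean ± SD of 6 control libraries) to 14.2 ± 2.41 CPM (5 shDRP1 libraries). Its partner Phka2, the alpha subunit of liver and other tissues, was at 30.7 ± 1.73 and 29.5 ± 2.36 CPM (adjusted p = 0.485, edgeR). Its small difference was of either sign, depending on how libraries were scaled. The share of Phka1 among the counts of both alpha genes was 22.9% ± 2.33 (SD, n = 6) among control libraries and 32.4% ± 3.92 (SD, n = 5) in shDRP1 libraries, a difference in log2 ratio of 0.69 (two-sided exact permutation test, p = 0.00216, adjusted 0.00325). The summed level of both alpha genes was 38.1 to 42.4 CPM in control and 40.1 to 49.1 CPM in shDRP1 libraries, which overlapped.

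Phkg1, the muscle catalytic subunit (ENSMUSG00000025537, chromosome 5 from 129863421 to 129898549, minus strand), was close to the limit of detection in both groups. It had 29 counts in all control libraries together and 38 in the shDRP1 libraries. In control it ran from 0.193 through a median of 0.273 to 0.310 CPM. In shDRP1 replicates 1 to 5 it was at 0.464, 0.541, 0.824, 0.188 and 0.175 CPM, so replicates 1 to 3 lay above all control libraries and replicates 4 and 5 below all of them. A fit with no low-count filter gave a log2 fold change of 0.68 with an SE of 0.42 (adjusted p = 0.168, edgeR). The log2 ratio of Phkg1 to Phkg2, the liver and testis form, differed by 0.27 (two-sided exact permutation test, p = 0.474), less than the SD of 0.92 among the shDRP1 libraries, which held 3 to 16 counts of Phkg1 each. Phkg2 itself was at 7.70 ± 0.605 and 8.83 ± 0.842 CPM (adjusted p = 0.0843, edgeR). With 2 other scalings it was called higher. The annotated Phkg1 locus overlaps 3 genes of the table, among them Chchd2 on the same strand, which was at 2253 and 1835 CPM, so single counts of Phkg1 are uncertain.

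Phkb codes for the beta subunit, which all forms of the kinase share, and it fell from 114.0 ± 11.03 (mean ± SD of 6 control libraries) to 39.8 ± 6.76 CPM (5 shDRP1 libraries), a log2 fold change of -1.52 (SE 0.11, adjusted p = 1.1e-08, edgeR). It lies on chromosome 8 from 85840959 to 86061376. Of the 20 tested genes nearest to it, 18 were lower and 2 higher, with a median log2 fold change of -1.12, against a median of 0.03 over all genes tested. The part of this neighbourhood in the fall of Phkb was not tested. Around the 7 tested members, the median log2 fold change of the 20 nearest genes ran from -0.10 at Gbe1 to 0.42 at Pgm1. Calmodulin is the delta subunit: Calm3 rose from 290.7 to 366.4 CPM (log2 fold change 0.33, adjusted p = 3.6e-05, edgeR), and Calm2 went from 644.4 to 753.0 CPM (adjusted p = 0.0343), a call lost in 9 of 20 alternatives.

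The genes that start and extend glycogen fell together. Gys1, the muscle glycogen synthase (ENSMUSG00000003865, chromosome 7 from 45434844 to 45456619, plus strand), ran from 78.3 through a median of 84.8 to 94.1 CPM in control and was at 47.3, 45.9, 39.2, 44.2 and 47.5 CPM in shDRP1 replicates 1 to 5. Its highest shDRP1 value was well below its lowest control value. The mean fell from 85.7 ± 6.02 (mean ± SD of 6 control libraries) to 44.9 ± 3.40 CPM (5 shDRP1 libraries), or 52.3% of control, a log2 fold change of -0.93 (SE 0.07, adjusted p = 2.1e-08, edgeR). Ruvbl2 overlaps Gys1 on the opposite strand and was at 12.6 and 12.8 CPM (adjusted p = 0.883). Gys2, the liver synthase, is not analysed here, so no ratio of synthase isoforms was formed.

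Gyg, glycogenin (ENSMUSG00000019528, chromosome 3 from 20122084 to 20155317, minus strand), ran from 34.6 through a median of 40.3 to 47.9 CPM in control and was at 23.4, 20.6, 20.1, 22.0 and 19.8 CPM in shDRP1 replicates 1 to 5. The groups were again apart. The mean fell from 40.7 ± 4.68 (mean ± SD of 6 control libraries) to 21.2 ± 1.51 CPM (5 shDRP1 libraries), or 52.1% of control, with a log2 fold change of -0.94 (SE 0.09, adjusted p = 2.6e-07, edgeR). The log2 fold changes of Gyg and Gys1 differed by less than either SE.

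Gbe1, the branching enzyme (ENSMUSG00000022707, chromosome 16 from 70313949 to 70569716, plus strand), ran from 7.90 through a median of 8.36 to 11.1 CPM in control, with replicate 1 the highest, and was at 14.1, 14.4, 12.4, 11.4 and 11.2 CPM in shDRP1 replicates 1 to 5. The groups were separated by the narrowest margin of the 7 genes, 11.14 CPM in control replicate 1 against 11.23 CPM in shDRP1 replicate 5. Its mean rose 1.44-fold, with a log2 fold change of 0.52, an SE of 0.11 and an adjusted p of 8.3e-04 in edgeR, from 8.83 ± 1.23 (mean ± SD of 6 control libraries) to 12.7 ± 1.48 CPM (5 shDRP1 libraries). Among the genes that build glycogen, the branching enzyme therefore went up where the synthase and glycogenin went down.

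Pgm1, phosphoglucomutase (ENSMUSG00000025791, chromosome 4 from 99929414 to 99987294, plus strand), ran from 74.3 through a median of 79.5 to 93.2 CPM in control and was at 118.0, 113.6, 116.9, 109.2 and 120.7 CPM in shDRP1 replicates 1 to 5. Its shDRP1 libraries were the most alike of any tested member, with a coefficient of variation of 3.83%. The mean rose 1.44-fold, from 80.5 ± 6.96 (mean ± SD of 6 control libraries) to 115.7 ± 4.43 CPM (5 shDRP1 libraries), a log2 fold change of 0.52 (SE 0.06, adjusted p = 4.9e-06, edgeR). Of the 20 tested genes nearest to Pgm1, 11 were higher and 4 lower, with a median log2 fold change of 0.42. The part of this neighbourhood in the rise of Pgm1 was not tested. Mouse Pgm1 and Pgm2 exchanged names between annotation releases, so both rows were read by identifier. The other row, now Pgm2 (ENSMUSG00000029171), was at 11.4 ± 1.42 and 10.3 ± 0.890 CPM (adjusted p = 0.240, edgeR). Pgm1 overlaps Itgb3bp on the opposite strand, which rose from 13.7 to 21.9 CPM; the strand setting of the counting is not given in the sources used here.

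**Figure D3:**
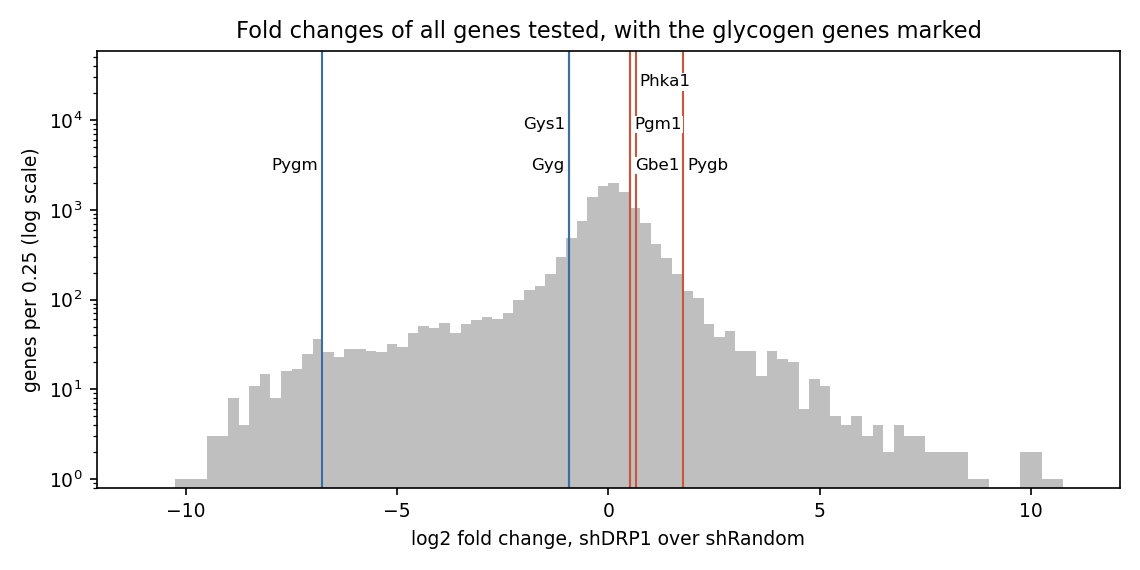
Histogram of the log2 fold changes (horizontal axis, shDRP1 over shRandom) of the 13025 genes tested, with the number of genes per bin on a log scale; lines mark the 7 tested glycogen genes, red where higher and blue where lower. Pygm at -6.78 lies in the lower tail, and the other members lie between -0.94 and 1.76.

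The order of the members' levels changed between the groups. Each transcript gives tags at its 3' end, so CPM was not divided by gene length, and differences in priming between genes were not measured. In the control libraries the order of mean CPM was Gys1, Pgm1, Pygm, Gyg, Pygb, Phka1, Gbe1 and Phkg1. The ranges of Gys1 and Pgm1, of Pgm1 and Pygm, and of Phka1 and Gbe1 overlapped, and those of the other neighbours did not. In the shDRP1 libraries the order was Pgm1, Pygb, Gys1, Gyg, Phka1, Gbe1, Pygm and Phkg1, with overlap between Phka1 and Gbe1 and between Pygm and Phkg1. Pygm thus went from the third to the seventh place and Pygb from the fifth to the second.

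The genes whose levels over the 11 libraries were most like those of Pygm were Tnnc2 (fast troponin C), Cobl, Klhl31, Mylpf (fast myosin regulatory light chain) and Atp2a1 (the calcium pump of fast fibres). Pearson's r of log2 CPM with Pygm was 0.999 for each of the 5, out of 8132 genes compared. The gap between the groups sets these values, and 291 genes had an r over 0.99. Log2 fold changes were -6.14 for Tnnc2, -7.35 for Cobl, -6.53 for Klhl31, -6.89 for Mylpf and -6.93 for Atp2a1, against -6.78 for Pygm.

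In the wider pathway, most steps around the members moved less than Pygm, and Prkag3, a regulator restricted to muscle, moved nearly as far. Nhlrc1 and Ppp1r3b, both at low levels in control libraries, also fell far. Of 49 further genes of glycogen metabolism and its control, 45 had a row and 41 were tested: 12 rose (29.3%), 17 fell (41.5%) and 12 did not pass, beside 33.9% and 33.3% of all genes tested. Their median log2 fold change was -0.12, against 0.03 over all genes, and it was the same with Nhlrc1, which had no count in shDRP1 libraries, at its bound. The groups did not overlap for 21 of the 41, a share near the 48.9% of all genes tested.

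Of the other enzymes of breakdown and precursor supply, Gaa, the lysosomal glucosidase, rose from 68.2 to 83.9 CPM (log2 fold change 0.30, adjusted p = 0.0036, edgeR). The Gaa levels of the groups overlapped. Ugp2, which makes the UDP-glucose used by the synthase, rose from 59.9 to 69.9 CPM with overlap between groups (adjusted p = 0.0123, and 0.0549 with the replicate number as a block). Hk2, the insulin-responsive hexokinase of muscle, fell from 129.3 ± 13.4 (mean ± SD of 6 control libraries) to 37.9 ± 1.11 CPM (5 shDRP1 libraries), a log2 fold change of -1.77 (adjusted p = 3.6e-11, edgeR), while Hk1 was at 109.4 and 114.1 CPM (adjusted p = 0.439). Pgm2l1, a relative of the phosphoglucomutases, rose from 3.22 to 6.85 CPM (log2 fold change 1.09, adjusted p = 4.9e-06).

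The subunits that bring protein phosphatase 1 to glycogen, where it activates the synthase and switches off phosphorylase, moved in opposite directions. Ppp1r3c, a widely expressed targeting subunit, ran from 0.451 through a median of 1.17 to 1.21 CPM in control and was at 13.1, 13.5, 15.7, 12.8 and 9.42 CPM in shDRP1 replicates 1 to 5, a log2 fold change of 3.60 (SE 0.19, adjusted p = 3.7e-10, edgeR). Ppp1r3b fell from 2.40 ± 0.510 (mean ± SD of 6 control libraries) to 0.0468 ± 0.0286 CPM (5 shDRP1 libraries), with 257 counts in control and 4 in shDRP1 libraries, a log2 fold change of -5.51 (SE 0.35, adjusted p = 3.9e-09, edgeR). Ppp1r3b passed the low-count filter through the control libraries. With only 4 counts in shDRP1 libraries, the size of its fall is less certain than its direction. The other 5 listed targeting subunits were under the filter or not analysed here, and the muscle form Ppp1r3a had 2 counts in all libraries.

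Genes of glycogen quality control and binding were grouped after their values were seen. Of these 3 genes 2 fell, where 33.3% of all genes tested did. Nhlrc1, the ubiquitin ligase malin that is mutated in Lafora disease, had 90 counts in the control libraries and 0 in the shDRP1 libraries, at least 24.3-fold lower against a floor of 3 counts over the group (adjusted p = 3.0e-06, edgeR). Nhlrc1 passed the low-count filter through the control libraries. Stbd1, which binds glycogen to membranes, fell from 29.6 ± 8.49 to 11.2 ± 3.03 CPM (log2 fold change -1.41, adjusted p = 6.3e-05). Epm2a, the glycogen phosphatase laforin that works with malin, was at 1.10 and 0.781 CPM (adjusted p = 0.0851).

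Among the kinases that act on glycogen enzymes, the gamma subunits of 1 complex moved in opposite directions. In the AMP-activated kinase, Prkag3, the gamma subunit restricted to glycolytic muscle, fell from 53.0 ± 6.91 (mean ± SD of 6 control libraries) to 0.634 ± 0.229 CPM (5 shDRP1 libraries), a log2 fold change of -6.39 (SE 0.18, adjusted p = 3.3e-13, edgeR), while Prkag2 rose from 8.57 to 23.6 CPM (1.46, adjusted p = 1.1e-08) and Prkag1 was at 140.6 and 132.7 CPM (adjusted p = 0.415). Prkag3 passed the low-count filter through the control libraries. It had 55 counts in all shDRP1 libraries together, so the size of its fall is less certain than its direction. Protein kinase A switches on phosphorylase kinase. Of its 6 subunit genes 4 fell and 1 rose, where 33.3% of all genes tested were lower and 33.9% higher. The catalytic subunit Prkaca fell from 339.3 to 150.2 CPM (-1.18, adjusted p = 2.0e-10, edgeR). It also lies on chromosome 8, where 16 of its 20 nearest genes were lower and 1 higher, with a median log2 fold change of -1.22. The part of that neighbourhood in the fall of Prkaca was not tested. The regulatory subunit Prkar1b had a log2 fold change of -1.92 (adjusted p = 2.0e-04) and Prkar2b of 1.12 (adjusted p = 1.6e-08, both edgeR). Both synthase kinases Gsk3a and Gsk3b fell, by 0.24 and 0.50 on the log2 scale, and the call of Gsk3a was lost with 2 other scalings. The groups overlapped for Gsk3b and not for Gsk3a.

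**Figure D4:**
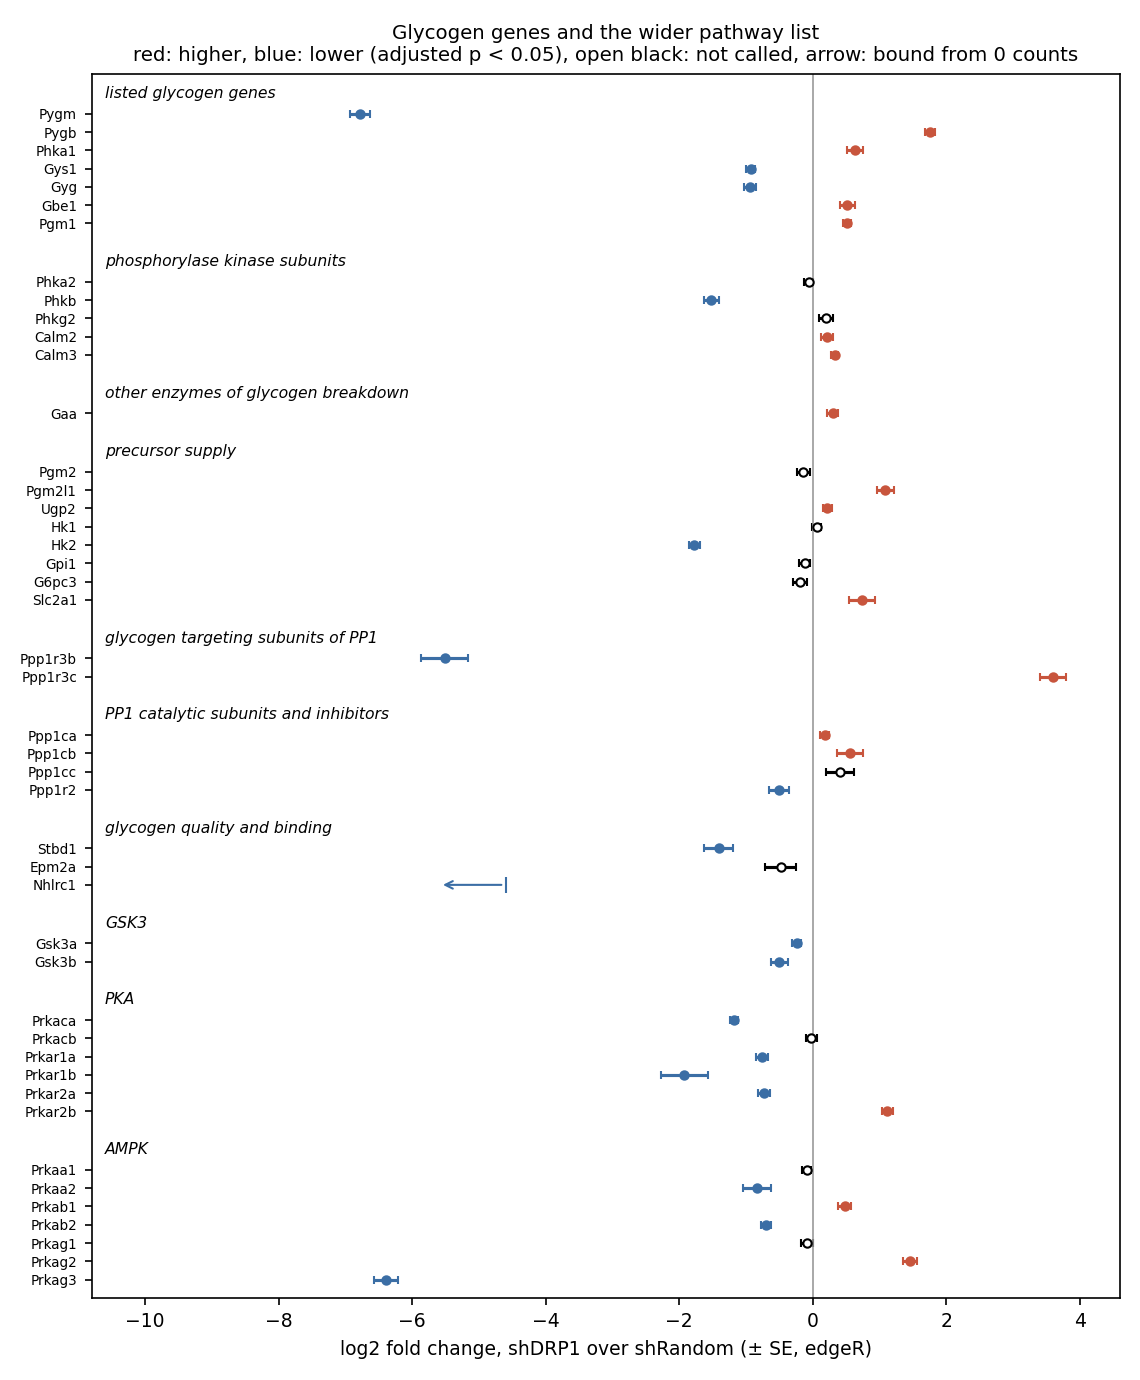
Log2 fold change of shDRP1 over shRandom libraries (horizontal axis, points with SE from edgeR) for the 7 tested glycogen genes and 38 of the 41 tested genes of the wider list, grouped by role; red is higher, blue lower and open black not past an adjusted p of 0.05, and the arrow of Nhlrc1 starts at its bound of -4.60. Pygm, Prkag3, Ppp1r3b and Nhlrc1 lie far to the left and Ppp1r3c to the right, while most other genes lie within 2 of 0.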

How the data were processed

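The members and gene lists were chosen with earlier results of these data known. Reads were aligned in BlueBee, per the series' text, and the submitters' processing notes list the build GRCm38 with DESeq2 1.22.2. The sources used here do not give the aligner, counter, annotation release or strand setting. The deposited raw table gives unnormalized counts, whole numbers for each gene. In the authors' second table the signal of every gene with counts was its raw count over a constant of the library, to within 0.01%; no result uses that table. Of 15113 identifiers, 15080 matched a symbol; positions are from GENCODE M21.

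Counts were tested with edgeR 4.0.16 in R 4.3.3: filterByExpr by group (13025 genes kept), TMM scaling, a robust quasi-likelihood fit with group as its only term, Benjamini-Hochberg adjustment over all genes and a threshold of 0.05. The SE is the absolute log2 fold change over the square root of F. Isoform ratios used log2 counts with 0.5 added and a two-sided exact permutation test. Named genes are the members, their isoform partners, pathway genes past the threshold with an absolute log2 fold change of at least 1, and the 5 genes most like Pygm with a mean of at least 10 CPM; other named genes, overlapping genes and neighbours were chosen after their values were seen. Roles within the pathway list were assigned after the fit. Of the pathway list, 3 tested genes are counted in its totals but not reported here by name. In data simulated for this comparison (12529 genes), edgeR called 22% of genes with a true change of 1.25-fold, 74% of those with 1.5-fold, 96% of those with 2-fold and 100% of those with 4-fold. False calls made up 5.19% of the 154 calls. The simulation changed only a small part of the genes, all above a minimum control level. In the measured data 67.1% of genes tested were called, so these rates need not hold there, nor for genes with low counts.

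Alternatives were other scalings and filters, DESeq2 1.42.0, limma-voom (limma 3.58.1), a replicate block, a threshold of 0.01 and leaving out libraries. Within groups, library pairs differed by more than sampling noise (chi-square per degree of freedom 5.25 to 59.6), so none was treated as the same library sequenced again. This check cannot tell separate cultures from separate preparations of the same culture.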

Additional observations from a re-analysis of the deposited data

How the results depend on the processing

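All 7 tested members kept their direction and their call in each of 20 alternatives, with log2 fold changes of -6.90 to -6.63 for Pygm, 1.71 to 1.86 for Pygb, -0.98 to -0.83 for Gys1, -0.99 to -0.84 for Gyg, 0.47 to 0.62 for Gbe1, 0.57 to 0.74 for Phka1 and 0.49 to 0.62 for Pgm1. The pathway list gave 8 to 15 higher and 15 to 18 lower genes over 21 alternatives. With library totals alone or the upper quartile, the median of all genes was 0.13 or 0.12 instead of 0.03. In both scalings the signs of Phka2 (0.04 and 0.03) and Prkacb (0.08 and 0.07) turned. Those of Prkaa1 (0.01) and Prkag1 (0.02) turned with library totals, and with the upper quartile both were at 0.00 after rounding. None of these genes was called. These scalings also called Phkg2 (0.30 and 0.28, adjusted p = 0.0120 and 0.0179) and Ppp1cc (0.51 and 0.50, adjusted p = 0.0367 and 0.0453) higher, and library totals called Hk1 higher (0.16, adjusted p = 0.0323). Epm2a was called lower without shRandom replicate 3 (-0.58, adjusted p = 0.0379). Leaving out each library in turn moved Prkacb between -0.07 and 0.02, with the sign turned without shRandom replicate 4 (0.02), shDRP1 replicate 2 (0.02) or shDRP1 replicate 3 (0.01).

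The labels do not say whether same-numbered libraries were paired. Their deviations correlated at -0.135 to 0.269, and 1 of 5 shDRP1 libraries, replicate 4, correlated best with its own number. So few correlations cannot decide whether the libraries were paired. With the replicate block in edgeR, 9 pathway genes were higher and 17 lower, and no member's call changed. Within replicate numbers 1 to 5, the mean paired difference in log2 ratio was tested by flipping the signs of the differences in all ways. Its p-value cannot go below 0.0625, which Pygm to Pygb (difference -8.49) and Phka1 to Phka2 (0.66) both reached. After adjustment over the isoform ratios both were at 0.0938 in this test. Leaving out each library in turn moved the Phkg1 to Phkg2 difference between 0.05 and 0.54, lowest without shDRP1 replicate 3. Leaving out shRandom replicate 1 and shDRP1 replicate 2 together, added after seeing the data, gave 9 higher and 17 lower pathway genes and left every member's call in place.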
